A study of Homo sapiens with 9 samples.

Results

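The genes described here are 10 colonocyte genes, among them genes of the apical brush border and of guanylin signalling. They are VIL1, CDHR2, EZR, CDH17, LGALS4, GUCA2A, GUCY2C, CFTR, CA2 and PHGR1. They were taken by symbol from count tables of 58920 genes. The set was fixed by name, with earlier results of these data known. LIM1215 is a colorectal carcinoma line. LIM1215-parental cells were kept without drug. LIM1215-R1 and LIM1215-R2 are heterogeneous, non-clonal populations selected separately from that line under rising concentrations of the EGFR antibody cetuximab. After selection they were maintained with cetuximab. The study reports an activating HRAS mutation in a subpopulation of each resistant line, a different one in LIM1215-R1 than in LIM1215-R2. All RNA came from cells in untreated basal culture, in RPMI medium with fetal bovine serum, and each line gave 3 libraries that the study calls technical replicates. The tests therefore measure the spread between these libraries only.

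Colonocytes carry a brush border, a dense layer of microvilli on the apical surface. Actin bundlers such as villin hold the core of each microvillus, ezrin ties that core to the membrane, and protocadherins link the tips of neighbouring microvilli. In the guanylin axis, the peptide guanylin is released towards the lumen and binds the receptor guanylate cyclase C, which makes cyclic GMP. Cyclic GMP-dependent kinase then acts on the chloride channel CFTR, so that chloride, bicarbonate and water leave the cell. Carbonic anhydrase supplies the bicarbonate.

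The libraries held 13737416 to 18725014 counts. Levels are given as CPM, a count relative to its library's size after scaling with TMM factors of 0.984 to 1.02, and 3 counts in a library equalled 0.158 to 0.217 CPM. Of 8 markers of colonic epithelium, 7 were above 1 CPM in every line and KRT20, a keratin of mature colonocytes, had 0 counts in all 9 libraries. The summed level of these markers was 12100 to 12400 CPM in LIM1215-parental, 15700 to 16000 in LIM1215-R1 and 14300 to 14700 in LIM1215-R2. Most of that sum was KRT8 (5717, 7884 and 7170 CPM) and KRT18 (4131, 5499 and 5008 CPM), while EPCAM fell by 0.26 and 0.32 on the log2 scale (adjusted p = 8.48e-06 and 4.12e-07, edgeR) and CDX2 fell as well. The 8 goblet cell markers summed to 581 to 589, 200 to 211 and 245 to 264 CPM, of which CLCA1 and ZG16 had 0 counts in every line and ATOH1 in both resistant lines. AGR2 made up most of the goblet sum (526.3, 162.3 and 207 CPM), TFF3 fell in both lines, MUC2 rose in LIM1215-R1 (log2 fold change 1.01, adjusted p = 0.00201, edgeR) and FCGBP rose in LIM1215-R2 (0.64, adjusted p = 0.000958, edgeR). The part of these marker shifts in the results was not tested. The 6 leukocyte markers summed to 7.32 to 10.5, 11.9 to 14.7 and 8.56 to 10.5 CPM with PTPRC and CD3E at 0. Most of that sum was CD68 (8.295, 13.37 and 9.789 CPM), which rose in LIM1215-R1 (log2 fold change 0.70, adjusted p = 9.24e-05, edgeR). The 6 stromal markers summed to at most 3.19 CPM with COL1A2 at 0 in every line and DCN in both resistant lines. Most of the stromal sum was COL1A1 (1.282, 0.8304 and 0.662 CPM) and PDGFRB (1.214, 0.8493 and 0.6671 CPM). The 4 endothelial markers summed to at most 0.722 CPM with KDR at 0. The 7 enteroendocrine markers summed to at most 0.126 CPM with CHGA, GCG, SST and INSM1 at 0 in every line.

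Upstream sequences from RefSeq (GRCh38) were at hand for 5 of the 10 genes. Shown are the 250 bases before the start of the guanylin gene GUCA2A and of its neighbour GUCA2B, the ligand genes that were barely or not counted. CFTR and LGALS4 follow as genes that were well counted and changed in opposite directions. The windows were searched on both strands for 4 short core motifs of intestinal transcription factors: TTTAT for CDX, CAAAGT for HNF4, GTTAAT for HNF1 and AGATAA for GATA. The letters of the CDX motif on the reverse strand can also be part of a TATA box. Capitals mark every match.
GUCA2A, chr1:42164746-42164995, minus strand: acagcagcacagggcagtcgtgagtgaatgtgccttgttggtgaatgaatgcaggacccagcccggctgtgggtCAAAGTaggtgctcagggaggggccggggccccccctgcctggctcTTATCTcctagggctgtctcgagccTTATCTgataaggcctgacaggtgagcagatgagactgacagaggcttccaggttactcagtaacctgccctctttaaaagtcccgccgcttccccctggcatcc
GUCA2B, chr1:42153160-42153409, plus strand: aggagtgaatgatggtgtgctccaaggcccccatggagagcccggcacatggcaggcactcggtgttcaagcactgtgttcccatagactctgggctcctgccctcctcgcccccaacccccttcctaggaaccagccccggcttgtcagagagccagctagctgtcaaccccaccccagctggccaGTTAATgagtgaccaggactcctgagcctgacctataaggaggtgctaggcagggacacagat
CFTR, chr7:117479775-117480024, plus strand: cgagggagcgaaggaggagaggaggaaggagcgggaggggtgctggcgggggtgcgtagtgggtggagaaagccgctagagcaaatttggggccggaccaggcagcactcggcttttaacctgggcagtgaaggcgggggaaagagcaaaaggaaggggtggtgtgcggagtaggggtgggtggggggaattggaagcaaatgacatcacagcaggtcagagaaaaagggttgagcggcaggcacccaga
LGALS4, chr19:38812946-38813195, minus strand: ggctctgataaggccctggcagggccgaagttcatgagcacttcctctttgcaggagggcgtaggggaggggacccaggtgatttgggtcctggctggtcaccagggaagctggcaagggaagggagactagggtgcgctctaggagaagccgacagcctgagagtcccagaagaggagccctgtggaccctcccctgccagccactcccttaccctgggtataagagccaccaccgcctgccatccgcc
The GUCA2A window held 1 HNF4 match and 2 GATA matches, and that of GUCA2B held 1 HNF1 match. The windows of CFTR and LGALS4 held 0 matches to these letters. Windows not shown were those of EZR, with 0 matches, and of CDHR2, which has more than 1 start. The EZR window, from 158818236 to 158818485 on the minus strand, lies inside the gene, which ends at 158819368. The bases that follow it were not found in an annotated EZR transcript, so it may not precede a used start. The CDHR2 window from 176549092 held 1 HNF1 match and 1 HNF4 match, and that from 176542261 held 0. Over the 35116 windows of this length in the same annotation, 32.7% held the CDX letters, 10.3% those of HNF4, 6.23% those of HNF1 and 9.17% those of GATA. A match is a description of the sequence and not a binding site.

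GUCY2C, which encodes guanylate cyclase C, had the deepest fall of the 10 genes. It lies on chromosome 12 from 14612632 to 14696599. Its level was 29.15, 24.27 and 27.95 CPM in the LIM1215-parental libraries. In LIM1215-R1 it was 8.10, 9.29 and 9.32 CPM, and in LIM1215-R2 it was 6.36, 7.62 and 5.16 CPM. Every resistant library thus lay below every parental one, and the resistant lines did not overlap with each other either. Against parental cells the log2 fold change was -1.61 in LIM1215-R1 (SE 0.111, adjusted p = 2.89e-12, edgeR quasi-likelihood, adjusted by Benjamini-Hochberg over 19102 genes) and -2.09 in LIM1215-R2 (SE 0.117, adjusted p = 3.8e-14). The level was 3.06-fold and 4.25-fold lower. In bulk RNA, fewer cells with the transcript and less transcript per cell cannot be told apart.
The direct comparison of LIM1215-R2 with LIM1215-R1 gave a log2 fold change of -0.48 for GUCY2C (SE 0.135) that missed the threshold of 0.01 (edgeR, adjusted p = 0.0182). It passed when LIM1215-parental replicate 2 was left out (adjusted p = 0.00968), as it did for LIM1215-R2 replicate 2 (log2 fold change -0.62, adjusted p = 0.00919).

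CFTR, the apical chloride and bicarbonate channel mutated in cystic fibrosis, rose in both lines. It lies on chromosome 7 from 117480025 to 117668665. The LIM1215-parental libraries were at 33.93, 33.23 and 33.15 CPM, those of LIM1215-R1 at 103.1, 95.9 and 94.8 CPM, and those of LIM1215-R2 at 139.1, 130.6 and 123.8 CPM. The 3 lines were separate from each other in every library. The log2 fold change was 1.55 in LIM1215-R1 (SE 0.0615, adjusted p = 2.06e-17) and 1.97 in LIM1215-R2 (SE 0.0608, adjusted p = 9.65e-20, edgeR), or 2.93-fold and 3.92-fold. The level in LIM1215-R2 exceeded that in LIM1215-R1 (log2 fold change 0.42, SE 0.0552, adjusted p = 3.8e-06, edgeR). The receptor gene and the channel gene of the same axis therefore changed in opposite directions in both lines.

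GUCA2A, the gene of guanylin itself, was at the counting limit in every line. It had 2, 0 and 0 counts in the LIM1215-parental libraries, 0, 1 and 0 in LIM1215-R1 and 1, 0 and 2 in LIM1215-R2. With 6 counts in all it missed the minimum of 10 and was not tested. No line exceeded 3 counts over its libraries, which equals 0.0602, 0.0622 and 0.0621 CPM, so no fold is given. GUCA2B, which encodes uroguanylin, the other ligand of the receptor, had 0 counts in all 9 libraries. These limits cover counting error only. The window of GUCA2A shown above thus belongs to a gene with hardly any counts.

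CA2, which encodes a cytosolic carbonic anhydrase, was counted at a low level, was higher in LIM1215-R1 and was not called in LIM1215-R2. Its libraries had 4, 10 and 5 counts in LIM1215-parental, against 21, 19 and 13 in LIM1215-R1 and, for LIM1215-R2, 6, 5 and 5. These counts correspond to 0.236 to 0.722, 0.814 to 1.29 and 0.310 to 0.357 CPM, and the range of LIM1215-R1 overlapped with neither of the other lines. The log2 fold change against parental cells was 1.49 in LIM1215-R1 (SE 0.429, adjusted p = 0.00708, edgeR) and -0.22 in LIM1215-R2 (SE 0.532, adjusted p = 0.815, edgeR). From LIM1215-R1 to LIM1215-R2 it was -1.71 (SE 0.444, adjusted p = 0.00983, edgeR).
Both calls for CA2 rested on few counts. The rise in LIM1215-R1 missed the threshold without LIM1215-parental replicate 1 (log2 fold change 1.23, adjusted p = 0.0441, edgeR) or 3 (1.24, 0.0487) and without LIM1215-R1 replicate 1 (1.36, 0.032) or 2 (1.43, 0.0239). With DESeq2 its adjusted p was 0.0301. The difference between the resistant lines was lost without any one of their 6 libraries, with adjusted p of 0.0356, 0.0349 and 0.0131 without LIM1215-R1 replicates 1, 2 and 3 and of 0.0404, 0.0469 and 0.0299 without LIM1215-R2 replicates 1, 2 and 3 (edgeR).

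**Figure D1:**
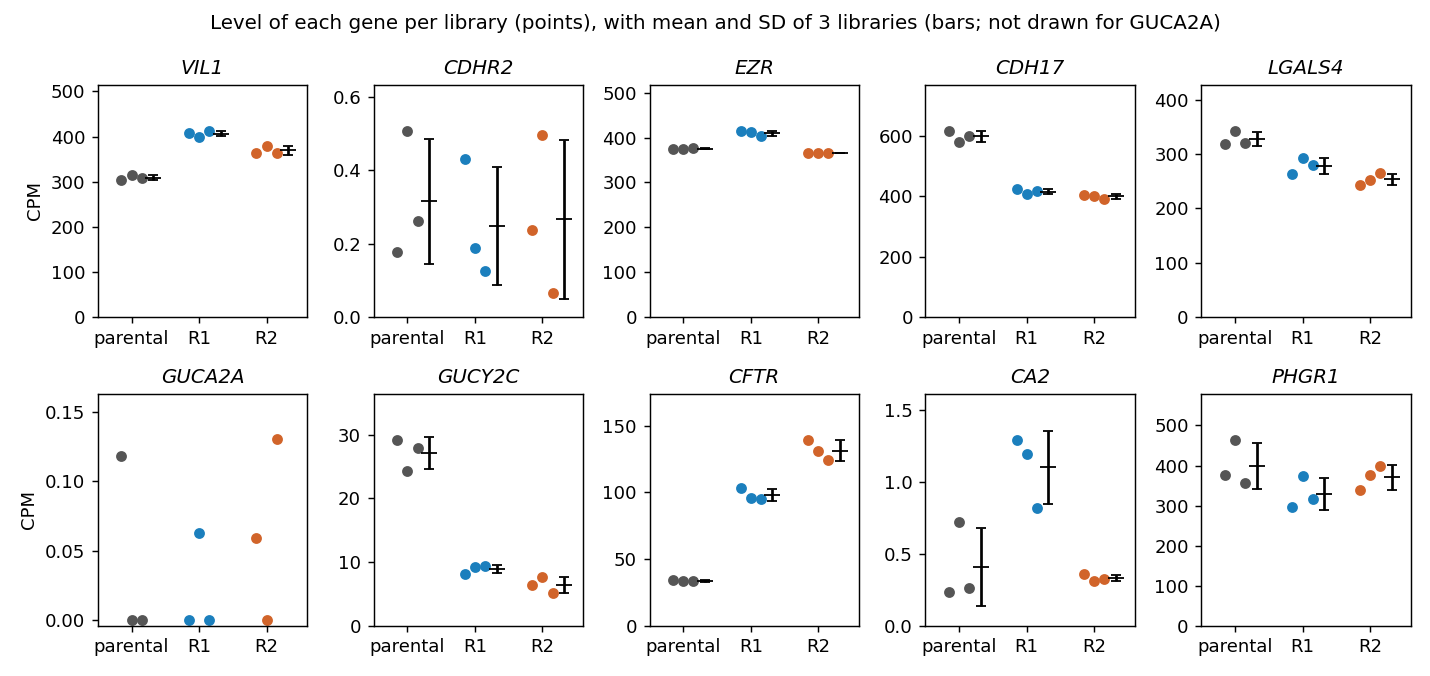
Level of the 10 genes in CPM (vertical axes, each from 0) in the 9 libraries, 3 per line (points), with mean and SD of 3 libraries as bars, not drawn for GUCA2A because of its 6 counts. The points of CFTR and GUCY2C separate all 3 lines, in opposite directions, while those of CDHR2 and GUCA2A overlap. Those of VIL1, EZR and CDH17 also separate all 3 lines, by smaller steps.

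VIL1, the actin-bundling core protein of the microvillus, was moderately higher in the resistant lines. It lies on chromosome 2 from 218419123 to 218453295. Its level was 303.9, 314.5 and 307.3 CPM in LIM1215-parental, against 408.6, 399.5 and 411.6 CPM in LIM1215-R1 and, for LIM1215-R2, 363.9, 379.9 and 364.1 CPM. No 2 lines overlapped. The rise was 31.8% in LIM1215-R1 (log2 fold change 0.40, SE 0.0404, adjusted p = 6.64e-09) and 19.7% in LIM1215-R2 (0.26, SE 0.0405, adjusted p = 8.94e-06, edgeR). The difference between the resistant lines (log2 fold change -0.14, SE 0.0402) did not pass (edgeR, adjusted p = 0.0208), although it did with DESeq2 (adjusted p = 0.00794).

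EZR encodes ezrin, the linker of actin to the apical membrane, and had the smallest spread of the 10 genes. It lies on chromosome 6 from 158765748 to 158819368. Its level was 374.4, 375.1 and 376.6 CPM in LIM1215-parental, against 414.1, 411.7 and 403.0 CPM in LIM1215-R1 and, for LIM1215-R2, 365.6, 365.0 and 366.1 CPM. The ranges did not overlap, yet the steps were small. The log2 fold change of 0.13 in LIM1215-R1 (SE 0.0387) missed the threshold (edgeR, adjusted p = 0.0113), and passed with DESeq2 (adjusted p = 0.00234) and with DESeq2 size factors in edgeR (adjusted p = 0.00752). In LIM1215-R2 it was -0.04 (SE 0.0387, adjusted p = 0.512, edgeR).
EZR was lower in LIM1215-R2 than in LIM1215-R1 (log2 fold change -0.16, SE 0.0387, adjusted p = 0.00444, edgeR). That call was lost without any one of the 6 resistant libraries, with adjusted p of 0.0122, 0.01 and 0.0157 without LIM1215-R1 replicates 1, 2 and 3 and 0.0238, 0.0285 and 0.0135 without LIM1215-R2 replicates 1, 2 and 3, and with total counts only (adjusted p = 0.0105).

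CDHR2, a protocadherin that links the tips of microvilli, was near the counting limit. It had 3, 7 and 5 counts in the LIM1215-parental libraries, 7, 3 and 2 in LIM1215-R1 and 4, 8 and 1 in LIM1215-R2. Over each line that is 0.301 CPM (exact 95% counting interval 0.168 to 0.497), 0.249 (0.129 to 0.435) and 0.269 (0.143 to 0.461). The 3 lines overlapped fully. A change was not detectable at this depth, with log2 fold changes of -0.29 in LIM1215-R1 (SE 0.695, adjusted p = 0.805, edgeR) and -0.18 in LIM1215-R2 (SE 0.686, adjusted p = 0.887, edgeR).

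CDH17, liver-intestine cadherin, which joins the lateral membranes of enterocytes, fell in both lines. Its level was 614.5, 578.6 and 599.9 CPM in LIM1215-parental, against 422.5, 406.3 and 415.4 CPM in LIM1215-R1 and, for LIM1215-R2, 405.2, 401.8 and 390.0 CPM. All 6 resistant libraries were below the parental ones. The level fell by 30.6% in LIM1215-R1 (log2 fold change -0.53, SE 0.0396, adjusted p = 1.83e-11) and by 33.2% in LIM1215-R2 (-0.58, SE 0.0397, adjusted p = 2.28e-12, edgeR). LIM1215-R2 lay just below LIM1215-R1 (log2 fold change -0.06, SE 0.0398, adjusted p = 0.427, edgeR).

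LGALS4 encodes galectin-4, a lectin that takes part in apical sorting of glycoproteins. It was at 319.5, 342.0 and 321.4 CPM in LIM1215-parental, against 263.5, 293.3 and 279.5 CPM in LIM1215-R1 and, for LIM1215-R2, 243.6, 251.8 and 264.8 CPM. Both resistant lines lay below the parental range and overlapped with each other. LGALS4 fell by 14.9% in LIM1215-R1 (log2 fold change -0.23, SE 0.0475, adjusted p = 0.000276) and by 22.6% in LIM1215-R2 (-0.37, SE 0.0477, adjusted p = 4.3e-07, edgeR). LIM1215-R2 against LIM1215-R1 gave -0.14 (SE 0.0478, adjusted p = 0.0572, edgeR).

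PHGR1, which encodes a small protein rich in proline, histidine and glycine that marks intestinal epithelium, varied most among the 5 members above 200 CPM in every line. It was at 376.0, 463.5 and 357.0 CPM in LIM1215-parental, against 297.5, 373.2 and 315.7 CPM in LIM1215-R1 and, for LIM1215-R2, 337.7, 375.5 and 397.7 CPM. The 3 lines overlapped. The SD was 14.2%, 12.0% and 8.20% of the mean, against medians of 3.43%, 3.99% and 2.64% over the 721 to 727 genes with a mean of 200 to 600 CPM in that line. For EZR it was 0.301%, 1.43% and 0.160%.
The fall of PHGR1 in LIM1215-R1 passed (log2 fold change -0.28, SE 0.0764, adjusted p = 0.00503, edgeR), and that in LIM1215-R2 did not (-0.11, SE 0.0762, adjusted p = 0.332, edgeR). The call in LIM1215-R1 was lost without LIM1215-parental replicate 2 (log2 fold change -0.16, adjusted p = 0.0532), LIM1215-R1 replicate 1 (-0.21, 0.0325) or 3 (-0.25, 0.0409) or LIM1215-R2 replicate 2 (-0.28, 0.0118), and with DESeq2 (adjusted p = 0.124). The resistant lines differed by 0.17 (SE 0.0765, adjusted p = 0.159, edgeR).

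**Figure D2:**
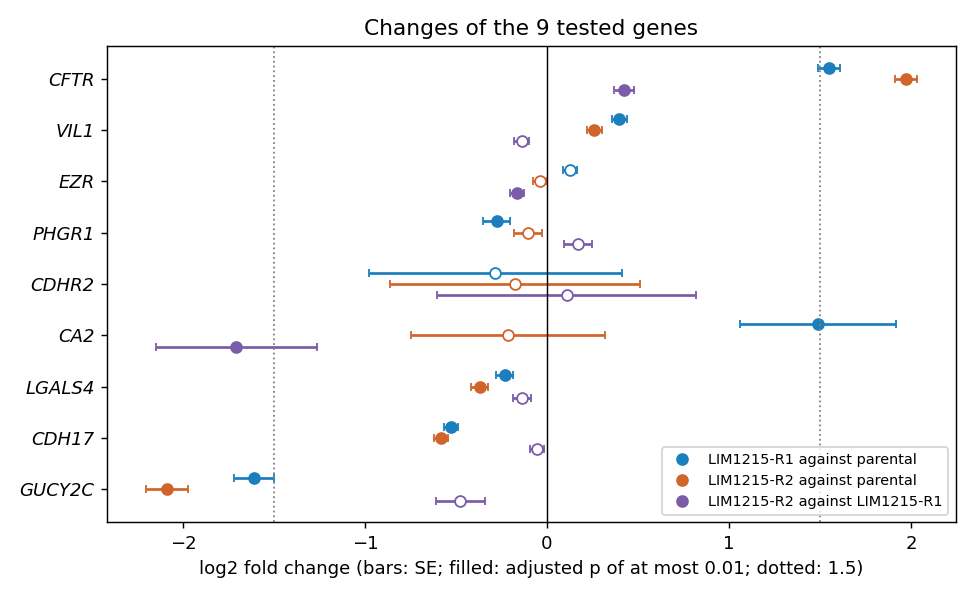
Log2 fold change (horizontal axis) with SE of the 9 tested genes in each resistant line against parental cells and between the resistant lines. Filled points have an adjusted p of at most 0.01 and dotted lines mark 1.5 in either direction. CFTR at 1.55 and 1.97 and GUCY2C at -1.61 and -2.09 are the only members beyond the dotted lines in both comparisons with parental cells.

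With the threshold on adjusted p alone (0.01), 3 of the 9 tested members rose in LIM1215-R1 (VIL1, CFTR and CA2) and 4 fell (CDH17, LGALS4, GUCY2C and PHGR1). Of all 19102 genes tested, 14.0% rose and 13.4% fell there, or 27.3% in either direction. In LIM1215-R2, 2 members rose (VIL1 and CFTR) and 3 fell (CDH17, LGALS4 and GUCY2C), beside 12.3% and 11.6% of all genes, or 23.8% in all. The members were chosen with earlier results of these data known, so they are not a blind sample of genes. The median log2 fold change of the 9 members was -0.23 in LIM1215-R1 and -0.18 in LIM1215-R2, with -0.01 and 0.00 over all genes tested.
A differentially expressed gene (DEG) also had to change by 1.5 or more on the log2 scale. CFTR was a higher DEG and GUCY2C a lower DEG in each resistant line. In LIM1215-R1 these calls did not hold in every setting: with shrunken DESeq2 values GUCY2C was at -1.4995, just short of 1.5, which left 1 DEG, and a test against a change of 1.5 left 0. For LIM1215-R1 the share of all genes was 3.24% higher and 1.91% lower, or 5.14%, and for LIM1215-R2 it was 2.63% and 2.19%, or 4.82%. Both comparisons use the same LIM1215-parental libraries. CA2, at 1.49 in LIM1215-R1, lay just short of 1.5 and was a DEG there in some settings.
Between the resistant lines, CFTR was higher in LIM1215-R2 and EZR and CA2 were lower. That is 3 of 9 members, beside 3.39% higher and 3.77% lower, or 7.16%, of all genes. CA2 was the single DEG, beside 0.215% higher and 0.550% lower, or 0.764%. The calls for EZR and CA2 were the ones that did not hold with libraries left out.

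Levels of different genes were compared per length, as CPM per kilobase of all annotated exons. In LIM1215-parental cells PHGR1 was first at 424 ± 60.4 CPM per kilobase (SD, n = 3), above 99.8% of the 16478 tested genes with a known length. CDH17 at 154 ± 4.65 and LGALS4 at 147 ± 5.61 followed and did not differ beyond their range. EZR was at 114 ± 0.344 and VIL1 at 44.8 ± 0.782, the first above 98.6% of genes. GUCY2C at 6.47 ± 0.606 stood above CFTR at 1.99 ± 0.0256.
This last order was the other way round in the resistant lines. CFTR was at 5.82 ± 0.269 and GUCY2C at 2.12 ± 0.167 CPM per kilobase in LIM1215-R1, and at 7.80 ± 0.458 and 1.52 ± 0.293 in LIM1215-R2. CDH17 moved from the second to the fourth place in both, behind LGALS4 and EZR, which overlapped with each other there. CA2, GUCA2A and CDHR2 held the last 3 places, at 0.203 CPM per kilobase or less in LIM1215-parental, and CDHR2 and GUCA2A overlapped in every line. With the longest transcript as length, the parental level was 698.5 for PHGR1, 243.6 for LGALS4 and 5.37 for CFTR, so that LGALS4 passed CDH17 at 162.8 while GUCY2C stayed above CFTR. On that scale LGALS4 was at 207.2 and EZR at 133.5 in LIM1215-R1, and at 188.4 and 119.2 in LIM1215-R2. The annotated exons of CFTR cover 16821 bases and its longest transcript 6223, so its level per kilobase depends on this choice.

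**Figure D3:**
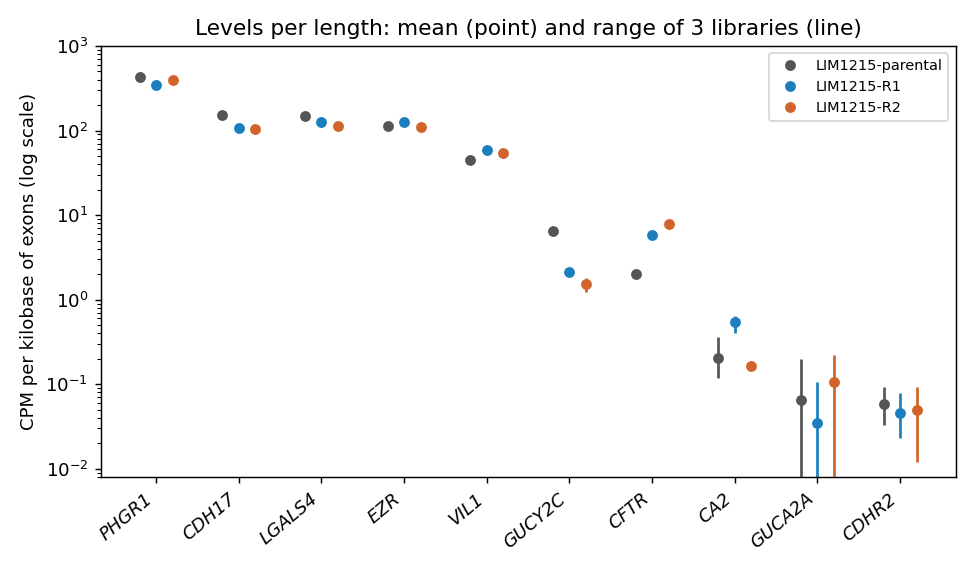
CPM per kilobase of exons on a log axis for the 10 genes, ordered by LIM1215-parental, with the mean (point) and the range of 3 libraries (line; ranges that reach 0 run to the lower edge). GUCY2C and CFTR exchange places between LIM1215-parental (6.47 and 1.99) and LIM1215-R2 (1.52 and 7.80).

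Ezrin belongs with radixin and moesin to one family of membrane linkers. RDX, the radixin gene, was at 6.05 ± 0.792 CPM in LIM1215-parental, against 38.5 ± 2.55 in LIM1215-R1 and, for LIM1215-R2, 52.2 ± 2.11 (SD, n = 3). Its log2 fold change was 2.66 (SE 0.0966, adjusted p = 3.09e-18) and 3.11 (SE 0.094, adjusted p = 6.72e-20, edgeR), or 6.34-fold and 8.61-fold. MSN, the moesin gene, had 5 counts in all 9 libraries and was not tested. Reads of near-identical stretches of the family could map to several genes. How such reads were handled in counting is not given, so these levels carry that uncertainty. NHERF1, listed as SLC9A3R1, the scaffold that ezrin holds at the membrane, had log2 fold changes of 0.09 and -0.05 (adjusted p = 0.189 and 0.513, edgeR). PDZK1, a scaffold of apical transporters, rose in LIM1215-R2 by 1.12 (SE 0.151, adjusted p = 9.45e-07, edgeR), and SLC9A3R2 rose in LIM1215-R1 by 0.44 (adjusted p = 1.59e-05, edgeR). The list held 6 tested genes, of which 3 (RDX, SLC9A3R2 and NF2) were higher in LIM1215-R1, 2 (RDX and PDZK1) were higher in LIM1215-R2, and 0 were lower. Among all genes tested, 14.0% were higher and 13.4% lower in LIM1215-R1, and 12.3% and 11.6% in LIM1215-R2.

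The other genes of the microvillus and of the complex between microvilli included called genes in both directions. Of 20 such genes, all tested, 3 were higher and 5 lower in LIM1215-R1, while LIM1215-R2 had 4 higher and 5 lower, with median log2 fold changes of 0.01 and 0.02. Over all genes tested, 14.0% were higher and 13.4% lower in LIM1215-R1, and for LIM1215-R2 the shares were 12.3% and 11.6%. The first median turned to -0.03 with total counts only as scaling. ANKS4B, a scaffold of the intermicrovillar complex, fell from 31.1 ± 0.896 CPM to 10.7 ± 0.663 and 11.7 ± 1.32 CPM, with log2 fold changes of -1.54 and -1.41. USH1C, which encodes its partner harmonin, fell by 0.48 and 0.44 on the log2 scale. MYO1A, the motor that joins the actin core to the side of the microvillus, fell from 66.1 ± 4.39 CPM to 40.1 ± 1.33 and 24.6 ± 0.341 CPM. STK10, a kinase of ezrin, fell by 0.83 and 0.94 (adjusted p = 1.68e-08 and 2.28e-09, edgeR). The actin bundlers ESPN and PLS1 rose, ESPN by 0.89 and 0.76 (adjusted p = 4.36e-10 and 1.19e-08, edgeR) and PLS1 by 0.35 and 0.44 (adjusted p = 1.41e-05 and 4.01e-07, edgeR). MYO7B, the myosin of the same complex, was at 41.2, 40.7 and 38.6 CPM (adjusted p = 0.905 and 0.355, edgeR). CDHR5, the binding partner of CDHR2, was at 4.82 ± 0.364, 7.04 ± 1.64 and 5.56 ± 1.11 CPM and did not pass (adjusted p = 0.0135 and 0.448, edgeR).

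Of the other genes of cyclic GMP signalling, 6 of 10 were tested. PDE5A, a phosphodiesterase that breaks down cyclic GMP, fell from 48.3 ± 4.43 CPM to 12.7 ± 1.32 in LIM1215-R1 and 15.9 ± 2.18 in LIM1215-R2 (log2 fold change -1.93 and -1.61, SE 0.0972 and 0.094, adjusted p = 4.0e-15 and 9.51e-14, edgeR). PDE9A, a second cyclic GMP phosphodiesterase, had 6 counts over the parental libraries and 453 and 407 over those of LIM1215-R1 and LIM1215-R2, or 0.107 ± 0.138, 9.40 ± 0.558 and 8.41 ± 0.788 CPM (adjusted p = 2.29e-15 and 6.44e-15, edgeR). One phosphodiesterase gene of the pathway was thus lower and another higher in the same libraries. PRKG2, the cyclic GMP-dependent kinase that acts on CFTR in enterocytes, had 13, 7 and 9 counts per line and did not pass (adjusted p = 0.456 and 0.684, edgeR). PRKG1 had 0 counts. These 2 phosphodiesterase genes were the only ones of the list past the test in either comparison with parental cells, beside 27.3% and 23.8% of all genes tested.

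Among 17 genes of chloride, bicarbonate and fluid transport, 14 were tested, of which 5 were higher and 3 lower in LIM1215-R1, while LIM1215-R2 had 2 and 4. Beside them, 14.0% of all genes tested were higher and 13.4% lower in LIM1215-R1, and 12.3% and 11.6% in LIM1215-R2. SLC12A2, the basolateral cotransporter that loads chloride into the cell, rose like CFTR, from 374 ± 15.6 CPM to 530.5 ± 26.7 and 638 ± 29.7 CPM (log2 fold change 0.50 and 0.77, adjusted p = 7.27e-10 and 1.2e-13, edgeR). AQP3, a water and glycerol channel, rose from 1.01 ± 0.136 CPM to 8.07 ± 0.760 and 7.13 ± 0.444 CPM (adjusted p = 2.88e-13 and 1.5e-12, edgeR). ANO1, a calcium-activated chloride channel, fell in LIM1215-R2 from 31.7 ± 2.54 to 14.7 ± 1.62 CPM (adjusted p = 1.21e-10, edgeR) and was at 34.4 ± 2.39 CPM in LIM1215-R1. SLC26A3, the chloride and bicarbonate exchanger of mature colonocytes, had 9, 2 and 1 counts per line (adjusted p = 0.2 and 0.103, edgeR). SLC9A3, the sodium and proton exchanger that cyclic GMP signalling inhibits, was at 6.75 ± 1.23, 7.05 ± 1.91 and 8.65 ± 1.70 CPM (adjusted p = 0.801 and 0.112, edgeR).

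Of 20 genes of absorptive colonocyte maturation, 13 were tested. In each resistant line 3 were higher and 6 lower. The shares of all genes were 14.0% higher and 13.4% lower in LIM1215-R1, and 12.3% and 11.6% in LIM1215-R2. The median log2 fold change of the list was -0.91 in LIM1215-R1 and -1.39 in LIM1215-R2, beside -0.01 and 0.00 over all genes. Several of these genes had few counts. The LIM1215-R2 median was the value of ANPEP, with 11 counts in all (adjusted p = 0.405, edgeR). FABP2 and SI, called lower in both lines, had 22 and 16 counts in all. FABP1, a fatty acid binding protein, fell from 4.13 ± 0.833 CPM to 0.996 ± 0.113 and 0.930 ± 0.228 CPM. CA1, a carbonic anhydrase like CA2, fell from 62 counts over the parental libraries to 9 and 6. ALPI, intestinal alkaline phosphatase of the brush border, rose from 0.993 ± 0.226 CPM to 4.44 ± 0.665 and 2.17 ± 0.434 CPM (adjusted p = 2.97e-08 and 0.00167, edgeR). The best counted genes of the list, GPA33 and TSPAN8, did not fall. TSPAN8 rose from 253.9 ± 10.1 CPM to 404.1 ± 12.6 and 376.3 ± 4.66 CPM (adjusted p = 6.32e-13 and 2.05e-11, edgeR). GPA33 was at 319.1 ± 22.4, 355.2 ± 15.6 and 439.1 ± 12.9 CPM and passed in LIM1215-R2 only (adjusted p = 0.0118 and 1.04e-08, edgeR). Of 19 paralogs of the members, 15 were tested, with 4 higher and 4 lower in LIM1215-R1 and 2 higher and 5 lower in LIM1215-R2. The shares of all genes are those given above for these comparisons. The carbonic anhydrase gene CA12 fell from 5.66 ± 0.310 CPM to 0.289 ± 0.125 and 0.0840 ± 0.0404 CPM. CDH16, the cadherin closest to CDH17, fell from 3.15 ± 0.0256 CPM to 4 counts in each resistant line, and LGALS1, the galectin-1 gene, rose from 1.62 ± 0.107 to 8.56 ± 0.0835 and 4.33 ± 0.324 CPM.

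Of 11 transcription factors of intestinal identity, 10 were tested, and in both lines 6 were lower and 2 higher. Of all genes tested, 13.4% and 11.6% were lower and 14.0% and 12.3% higher. The median log2 fold change of the list was -0.49 and -0.59, beside -0.01 and 0.00 over all genes. CDX2, the homeobox factor of intestinal identity, fell from 412.8 ± 17.3 CPM to 305 ± 10.5 and 283 ± 4.70 CPM (log2 fold change -0.44 and -0.55, adjusted p = 4.66e-09 and 6.04e-11, edgeR). HNF4A fell from 239.8 ± 10.6 CPM to 164 ± 8.69 and 155 ± 3.00 CPM. HNF4G and GATA6 fell by 1.16 and 0.93 on the log2 scale in LIM1215-R1 and by 1.06 and 0.98 in LIM1215-R2. KLF4 rose from 25.6 ± 3.04 CPM to 44.6 ± 1.83 and 54.9 ± 1.36 CPM. The upstream windows were searched for fixed core letters of CDX, HNF4, HNF1 and GATA factors, and those of CFTR and LGALS4 held no exact match. Other spellings of these sites were not searched. The LGALS4 window holds, near its start, a stretch that differs from the searched GATA letters in the first base only. Whether these factors act on CFTR or LGALS4 was not tested.

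**Figure D4:**
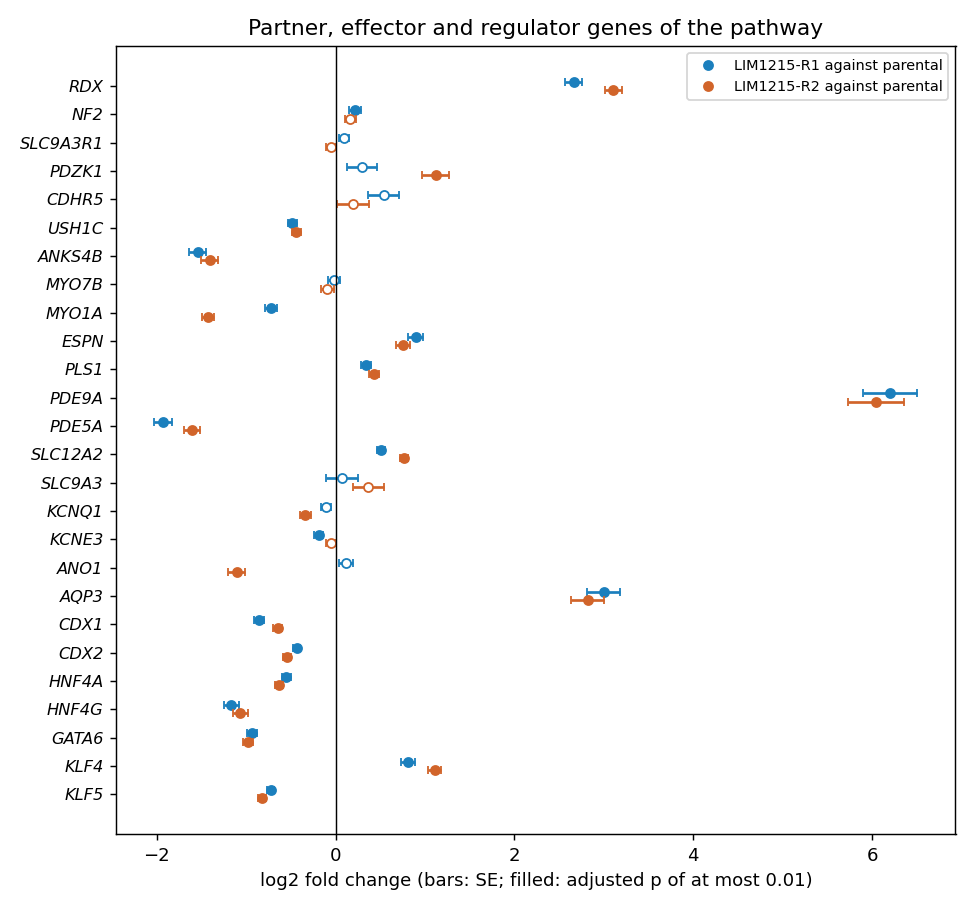
Log2 fold change (horizontal axis) with SE of 26 partner, effector and regulator genes in each resistant line against parental cells, with filled points at an adjusted p of at most 0.01. PDE9A lies at 6.20 and 6.04 and RDX at 2.66 and 3.11, while PDE5A lies at -1.93 and -1.61.

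The gene whose log2 CPM over the 9 libraries was most like each member was sought among 9296 other genes with a mean of at least 10 CPM. These libraries fall into 3 lines, so that a high Pearson r mostly describes the levels of the lines. For GUCY2C it was PRKAR2B (r = 0.9958), a regulatory subunit of cyclic AMP-dependent kinase, at 44.4, 2.80 and 1.27 CPM. For CFTR it was GDA (0.9987), guanine deaminase, at 63.3, 128 and 163 CPM. For CDH17 it was KLF5 (0.9974), at 444 CPM in LIM1215-parental, against 269 in LIM1215-R1 and, for LIM1215-R2, 251. VIL1 was most like NEDD9 (0.9941), LGALS4 most like GABARAP (0.9934), EZR most like ASS1 (0.9797) and PHGR1 most like RFX1 (0.9672). With an r above 0.95, 391 genes matched CFTR, 385 CDH17, 258 VIL1 and 236 GUCY2C, but only 10 matched EZR and 2 PHGR1. CDHR2 and CA2 had too few counts for this comparison to be read.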

How the data were processed

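Poly(A) RNA of 3 LIM1215 lines was read from both ends in stranded libraries, 3 per line. The authors mapped read pairs with STAR (build hg38), obtained sense-strand gene counts from htseq-count (HTSeq 0.9.1 in the submitters' processing notes) and deposited these raw counts without normalization. The gene annotation is not given in the sources used here.

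Libraries were grouped by line. The 19102 genes whose counts summed to 10 or more were fitted in R 4.3.3 with edgeR 4.0.16, using TMM scaling and 1 quasi-likelihood model of all 9 libraries, and p-values were adjusted by Benjamini-Hochberg across them. SEs came from the test statistic, and CPM values use the TMM factors. DESeq2 1.42.0 served as an alternative. Exon lengths came from GENCODE, positions and upstream sequences from RefSeq. The count model was first tested on simulated data. Library totals of 13737416 to 18725014 set the precision.

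Named genes were the 10 members, fixed partners (CDHR5, USH1C, MYO7B, MYO1A, RDX, MSN, NHERF1, GUCA2B, PRKG2, SLC26A3, SLC9A3, CDX2, HNF4A, KRT20), up to 3 genes per list with the largest change past the test and at least 1 CPM in the higher group, and the most alike genes. PRKG1, NF2, ESPN, PLS1, the markers and genes drawn or named beyond this rule were chosen after their values were seen. Members and lists were chosen with earlier results of these data known.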

Additional observations from a re-analysis of the deposited data

Results flagged for a closer look

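The changes against parental cells differed between the resistant lines in 3 of the 9 tested genes, by the direct contrast of LIM1215-R2 with LIM1215-R1 in edgeR at an adjusted p of at most 0.01, beside 7.16% of all genes tested. CFTR had a log2 fold change of 0.42 between the lines (adjusted p = 3.8e-06, higher in 3 of 3 LIM1215-R2 libraries). EZR had -0.16 (adjusted p = 0.00444), with LIM1215-R2 at 365.0 to 366.1 CPM below LIM1215-R1 at 403.0 to 414.1 CPM. CA2 had -1.71 (adjusted p = 0.00983) from 53 and 16 counts over the libraries of LIM1215-R1 and LIM1215-R2. The calls for EZR and CA2 were lost without any one of the 6 resistant libraries, and that for CFTR was kept.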

How the results depend on the processing

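Of 451 log2 fold changes of members under alternatives, 397 kept their direction and side of the threshold, 31 lost the call, 14 gained one and 9 changed sign, and the 21 list counts stayed within 1.5 times with DESeq2 size factors. With total counts only, the transcription factors that differed between the resistant lines went from 1 to 2. The cause was not tested. CFTR and GUCY2C kept an adjusted p of at most 0.01 against parental cells in both lines under every alternative that gave one, at 1.51 to 1.57 and 1.93 to 2.01 for CFTR and -1.68 to -1.55 and -2.23 to -1.96 for GUCY2C with a library left out.

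With a library left out, the log2 fold change in LIM1215-R1 ranged from -0.93 to 0.16 for CDHR2 (0.02 without LIM1215-R1 replicate 3), from 1.23 to 2.10 for CA2 and from -0.38 to -0.16 for PHGR1. In LIM1215-R2 it ranged from -0.94 to 0.27 for CDHR2 (0.25 without LIM1215-R2 replicate 3), from -0.48 to 0.40 for CA2 and from -0.18 to 0.015 for PHGR1. The sign turned without LIM1215-parental replicate 2 in each of CDHR2 (0.16 and 0.27), CA2 (0.40) and PHGR1 (0.015). Between the resistant lines the range was -0.66 to 0.75 for CDHR2 (-0.05 and -0.20 without LIM1215-R1 replicates 2 and 3), -0.18 to -0.16 for EZR, -0.62 to -0.35 for GUCY2C and -1.88 to -1.58 for CA2. The number of members that differed between the resistant lines was 1 to 4 and that of DEGs 0 to 1.

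For LIM1215-R1, EZR passed at 0.13 with DESeq2 size factors, with 10 counts in every library and with DESeq2, also shrunken. CA2 missed at 1.49 with DESeq2, 0.67 shrunken and 1.498 with 6 libraries. PHGR1 missed at -0.27 with 10 counts in every library, DESeq2 and 6 libraries and at -0.25 shrunken. Between the resistant lines, VIL1 passed at -0.14 with DESeq2, also shrunken, and GUCY2C at -0.48 and PHGR1 at 0.17 with no filter beyond 1 count. EZR missed at -0.15 with total counts only, and CA2 at -1.69 with total counts only, -1.73 with DESeq2 and -0.74 shrunken. DEGs among members in LIM1215-R1 numbered 1 with shrunken DESeq2 values (CFTR, with GUCY2C at -1.4995) and 0 with a test against a change of 1.5. They numbered 3, with CA2 added, at a log2 threshold of 1 (CA2 at 1.491) and with no filter beyond 1 count (1.504). The number was also 3 without LIM1215-parental replicate 2 (CA2 at 2.10) or LIM1215-R1 replicate 3 (1.66). Between the resistant lines, where CA2 was the single DEG, they numbered 0 with shrunken values, the test against 1.5, total counts and DESeq2. They also numbered 0 with 10 counts in every library, a filter that removes CA2 from testing. Members that differed there numbered 1 with total counts and 5 with no filter. Per kilobase of the longest transcript, the parental level was 47.5 for VIL1, 122.4 for EZR, 162.8 for CDH17, 243.6 for LGALS4, 5.37 for CFTR and 698.5 for PHGR1.

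Libraries shared only a replicate number: 4 of 9 same-number pairs had deviations correlated above 0.1 (range -0.186 to 0.581). Only 3 of 9 libraries correlated best with their own number. Pairs of different numbers ranged from -0.568 to 0.438. LIM1215-parental replicate 2 deviated together with LIM1215-R1 replicate 2 (0.581) and LIM1215-R2 replicate 3 (0.423), as these did with each other (0.438). Each of these libraries had the highest PHGR1 and LGALS4 level of its line. What these libraries share was not tested. With the replicate block, 6 members differed between the resistant lines, with VIL1 at -0.14, GUCY2C at -0.48 and PHGR1 at 0.18 gained, and EZR at 0.13 was gained in LIM1215-R1. Depth limits CDHR2, CA2 and GUCA2A, with 40, 88 and 6 counts in all.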
